A study of Mus musculus with 2 samples.

Results

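Collagen genes were chosen by symbol: every gene whose symbol reads Col, a number, a and a number. The rule found 44 genes among 55414 gene identifiers, and used no measured value. RNA abundance per gene had been measured by RNA sequencing in R1E cells, a wild-type line of mouse embryonic stem cells, which are pluripotent cells derived from the early embryo. All cells grew in medium with serum and leukemia inhibitory factor, a cytokine that holds back differentiation. The untreated group was 1 library labelled 0 h, and the treated group was 1 library made after 8 h with Adriamycin at 0.5 µM. This drug is also called doxorubicin and is one that traps topoisomerase II on broken DNA. The comparison asks which collagen transcripts differ in level between cells with and without the drug.

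Neither condition had a replicate, so no test and no p-value between conditions was possible, and every value describes these 2 libraries. Differences between cultures, library preparations and time in culture cannot be told apart from the drug. Counted reads came to 41820999 without the drug and 38561292 with it, and levels are given in CPM, counts scaled by library size and TMM factor. A gene is called measured when its CPM averaged over the libraries reaches 1, which held for 14871 genes. A measured gene is called higher or lower when its Adriamycin level differs from the untreated level by at least 2-fold. Intervals are nominal 95% exact intervals for the error of counting and for no other source of variation. Both mates of a fragment were counted, and the intervals treat mates as independent except where counts divided by 2 are named. They are thus too narrow as 95% intervals for fragments. For the log2 ratio of Col4a2 the interval was 0.04 to 0.13, and 0.02 to 0.15 on counts divided by 2. In bulk RNA, a smaller number of cells making a transcript and less transcript per cell cannot be told apart. All 6 stem cell markers on the list (Pou5f1, Sox2, Nanog, Zfp42, Esrrb and Klf4) were measured. Their levels after Adriamycin were 1.34-fold (Sox2) to 3.69-fold (Zfp42) below the untreated ones. Of the 6, 3 were lower by at least 2-fold, against 6.95% of all measured genes. The part of this in the collagen results was not tested. Mdm2 and Cdkn1a, genes known to respond to DNA damage, had log2 ratios of 2.84 and 1.63.

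Collagens are secreted or membrane-bound matrix proteins whose chains wind around each other in threes to form a rope-like helix. Glycine, the smallest amino acid, has to recur at every turn of the helix, so coding sequences carry a GGN codon after each pair of other codons. Fibrillar collagens have long unbroken helices and pack into the fibrils of skin, bone and cartilage. Type IV collagen has interrupted helices and forms the net of basement membranes, the sheets on which the first embryonic epithelia rest. FACIT collagens sit on the surface of fibrils, and type VI collagen forms beaded filaments. Other members anchor basement membranes, span the cell membrane or carry side chains of heparan sulfate.

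By textbook class the 44 genes were 11 fibrillar, 6 basement membrane (type IV) and 27 other genes, the last of which hold 9 FACIT and 6 type VI genes. The fibrillar class can be told from the others in the coding sequence, which the symbol rule did not use. In the longest open reading frame of each gene (GENCODE M21 transcripts), the longest run of glycine codons at a spacing of 3 codons was 216 to 344 repeats in the fibrillar genes. It was 39 to 66 repeats in the type IV genes, with 22 to 27 separate runs of at least 5 repeats per gene. Col16a1 and Col7a1 came close to that, with 21 and 20 such runs. In the 9 FACIT genes the longest run was 32 to 113 repeats, and in the 6 type VI genes 37 to 87. The ranges of these classes and of type IV overlap. The stretches below are shown because they set an unbroken fibrillar helix beside a type IV one at the end of a run. Each is 90 bases of the open reading frame, with glycine codons (GGN, in frame) in capitals. Col1a1 is on chromosome 11 and Col4a1 on chromosome 8.
Col1a1 (codons 168 to 197): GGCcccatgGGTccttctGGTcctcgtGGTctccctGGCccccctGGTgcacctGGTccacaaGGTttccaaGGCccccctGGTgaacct
Col4a1 (codons 145 to 174): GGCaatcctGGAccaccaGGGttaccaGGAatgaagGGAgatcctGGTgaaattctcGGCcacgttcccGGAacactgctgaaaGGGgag
In Col1a1 a glycine codon opened each group of 3 codons over a run of 338 repeats. The Col4a1 stretch shows the end of its longest run, of 40 repeats, after which the glycine codons are out of step with it.

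Of the 44 collagen genes, 30 were measured and 14 were not. Of the 30, 17 were called higher after Adriamycin, 0 were lower and 13 were neither. Among all 14871 measured genes, 17.0% were higher and 6.95% were lower. The median log2 ratio of the measured collagen genes was 1.48, against -0.03 over all measured genes. At 4-fold or more, 12 collagen genes were higher, against a background of 7.18%, and 0 were lower, against 0.706%. Mates were counted separately, so the counting interval was also computed on counts divided by 2. Its lower end was still at or above 2-fold for 16 of the 17. Each of these counts of higher genes includes Col6a1, Col12a1, Col15a1 and Col23a1. These were below 1 CPM untreated, so they passed the filter only through the Adriamycin library and had to differ. Where 1 CPM was required in each library, 13 of 26 collagen genes were higher, against 12.9% of all such genes. The 4-fold and interval counts were not computed under that filter.

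**Figure D1:**
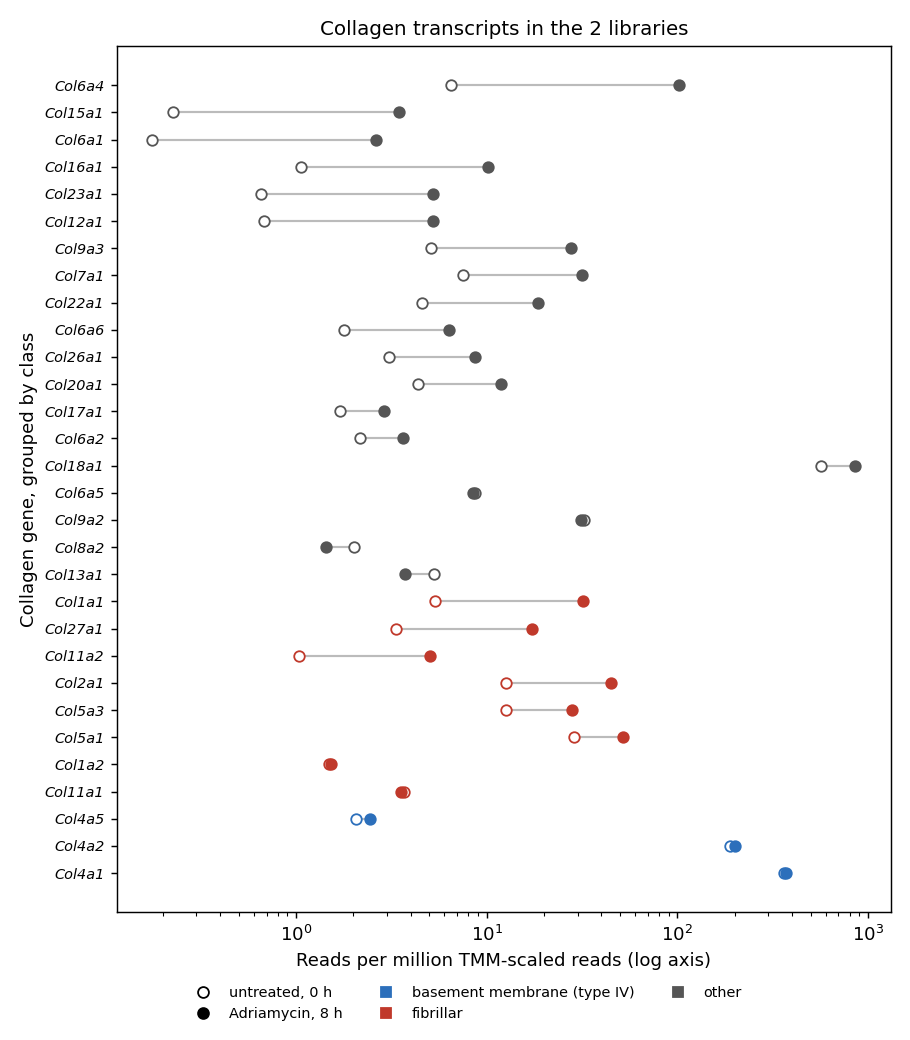
Scaled CPM (log axis) of the 30 measured collagen genes in the untreated library (open circles) and the Adriamycin library (filled circles), coloured by class and joined by a line per gene. Col18a1, Col4a1 and Col4a2 lie far to the right of the other genes in both libraries, and the longest lines to the right belong to Col6a4, Col15a1 and Col6a1.

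Per length of transcript, 3 genes dominated the collagen message of these cells. Levels between genes are given as RPKM, CPM per kilobase of exonic length. Col18a1, whose product is a heparan sulfate proteoglycan of basement membranes and the source of endostatin, was at 80.8 RPKM untreated and 122 RPKM after Adriamycin. Col4a1 and Col4a2, which encode the common chains of type IV collagen, were at 48.7 and 28.4 RPKM untreated and at 49.7 and 30.2 RPKM after Adriamycin. These genes held 85.2% of the summed collagen RPKM without the drug and 74.6% with it.

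The next gene in the untreated order was Col9a2 at 10.5 RPKM, followed by Col5a1 at 3.34, Col5a3 at 1.86, Col2a1 at 1.37 and Col9a3 at 1.33 RPKM. The counting intervals of Col2a1 and Col9a3 overlap. In the Adriamycin library Col6a4 had rank 4, up from rank 13 at 0.758 RPKM, and Col1a1 had rank 8 at 4.87 RPKM. The intervals of Col1a1 and Col2a1 overlap in that library. Some of this order depends on the length used. Per kilobase of the longest protein-coding transcript, Col2a1 (2.49) stood above Col5a3 (2.07) untreated. After Adriamycin Col2a1 (8.74) then stood above Col5a1 (6.21) and Col1a1 (5.39). Most collagen genes were thus expressed at a low level in both libraries, and the order below the first 3 differed between them.

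Collagen genes took 0.122% of all reads without the drug (50876 reads) and 0.200% with it (77271 reads). Summed over each class, fibrillar reads went from 2763 to 7542, a 2.68-fold higher scaled level (log2 ratio 1.42, interval 1.36 to 1.48). Type IV reads were 22011 and 23266, a 1.04-fold difference (log2 ratio 0.05, 0.03 to 0.08). The other genes had 26102 and 46463 reads, and without Col18a1 they had 3534 and 11676, a 3.24-fold higher level. Fibrillar genes held 4.47% of the summed collagen RPKM untreated and 8.34% after Adriamycin, while type IV genes held 41.8% and 29.7%.

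Of the type IV genes, 3 of 6 were measured, with a median log2 ratio of 0.09. Of these, 0 were higher (against 17.0% of all measured genes) and 0 lower (against 6.95%). Col4a1 (ENSMUSG00000031502, chromosome 8, 11248423 to 11362826, minus strand, GRCm39) had 14449 untreated and 15048 Adriamycin reads, which are 363 and 371 CPM. Col4a2 (ENSMUSG00000031503, chromosome 8, 11362805 to 11499287, plus strand) had 7474 and 8101 reads, or 188 and 200 CPM. Their log2 ratios were 0.03 (-0.002 to 0.06) and 0.09 (0.04 to 0.13), both smaller than the shift between scalings, and both below 0 with upper-quartile factors. Col4a5, a chain of kidney and other specialised basement membranes, had 82 and 99 reads (log2 ratio 0.24, -0.19 to 0.68). The unmeasured Col4a3, Col4a4 and Col4a6 had 0, 6 and 0 untreated reads and 5, 5 and 8 Adriamycin reads. On counts divided by 2, the counting intervals of all 3 included a log2 ratio of 0.

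Type IV genes lie in head-to-head pairs, each pair transcribed outward from a shared upstream region. In the deposited exon positions the first exons of Col4a1 and Col4a2 overlapped by 22 bases, Col4a4 and Col4a3 started 71 bases apart, and Col4a6 and Col4a5 1308 bases apart. Within a library, the per-length level of Col4a1 was 1.71 times that of Col4a2 untreated and 1.65 times after Adriamycin. This ratio does not depend on the scaling between libraries. It differed between them by a log2 value of -0.06 (-0.11 to -0.002), an interval that includes 0 on counts divided by 2 (-0.14 to 0.02). Col4a6 and Col4a5 were unlike each other, with 0 against 82 reads in the untreated library.

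The promoter windows of both pairs are shown because both members of one pair were abundant, while in the other pair one member had no untreated read. Each window runs from 250 bases before to 50 after the annotated start, from RefSeq on GRCm38.p6, and is written 5′ to 3′ on the strand of its gene. Capitals mark the motifs searched for: GGGCGG (GC box), CCAAT and TATAAA, on either strand.
Col4a1 (chr8:11312777-11313076, minus strand): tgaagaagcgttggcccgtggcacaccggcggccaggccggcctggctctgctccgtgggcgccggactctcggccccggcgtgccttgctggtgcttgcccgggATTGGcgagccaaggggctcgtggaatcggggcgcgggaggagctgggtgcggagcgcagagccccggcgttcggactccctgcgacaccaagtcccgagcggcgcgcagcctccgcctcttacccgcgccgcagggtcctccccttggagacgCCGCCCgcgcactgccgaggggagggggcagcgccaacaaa
Col4a2 (chr8:11312555-11312854, plus strand): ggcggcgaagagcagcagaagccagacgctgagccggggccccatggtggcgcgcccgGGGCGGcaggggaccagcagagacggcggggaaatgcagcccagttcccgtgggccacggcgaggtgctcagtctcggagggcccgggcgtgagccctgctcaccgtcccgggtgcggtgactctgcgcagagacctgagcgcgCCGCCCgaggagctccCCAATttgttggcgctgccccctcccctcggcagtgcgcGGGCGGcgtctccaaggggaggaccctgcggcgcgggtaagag
Col4a6 (chrX:141474027-141474326, minus strand): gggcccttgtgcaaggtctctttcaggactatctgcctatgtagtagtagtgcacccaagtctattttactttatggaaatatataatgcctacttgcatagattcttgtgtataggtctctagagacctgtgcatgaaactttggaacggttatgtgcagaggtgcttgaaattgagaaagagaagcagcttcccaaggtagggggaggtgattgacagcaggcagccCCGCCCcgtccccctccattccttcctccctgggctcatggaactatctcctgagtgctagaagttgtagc
Col4a5 (chrX:141475169-141475468, plus strand): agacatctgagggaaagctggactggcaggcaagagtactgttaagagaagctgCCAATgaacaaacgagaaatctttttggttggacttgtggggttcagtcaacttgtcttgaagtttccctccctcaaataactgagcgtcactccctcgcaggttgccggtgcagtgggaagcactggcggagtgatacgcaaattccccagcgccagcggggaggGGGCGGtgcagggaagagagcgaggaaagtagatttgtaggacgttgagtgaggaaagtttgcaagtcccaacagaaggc
The Col4a1 and Col4a2 windows share 78 bases read from opposite strands, and they held 37 and 33 CG dinucleotides. The Col4a6 and Col4a5 windows held 3 and 11, and 842 bases lie between them. In the Col4a1 window a CCAAT motif and 1 GC box were found, and in the Col4a2 window a CCAAT motif and 3 GC boxes. All 4 windows held a GC box, and none held TATAAA.

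Of the fibrillar genes, 8 of 11 were measured, with a median log2 ratio of 1.48. Of these, 5 were higher (against 17.0% of all measured genes) and 0 lower. Col1a1 (ENSMUSG00000001506, chromosome 11, 94827050 to 94843868, plus strand), the main chain of type I collagen in bone and skin, had 214 untreated and 1295 Adriamycin reads. Its log2 ratio was 2.57 (2.36 to 2.78), which is 5.92-fold higher. Its partner Col1a2 had 59 and 62 reads (log2 ratio 0.04, -0.49 to 0.58). The chains of 1 molecule thus stood apart in both libraries, and further apart in the Adriamycin library.

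Col2a1, the collagen of cartilage, had 505 and 1809 reads and was 3.51-fold higher (log2 ratio 1.81, 1.67 to 1.96). Col11a2 and Col11a1 encode chains of type XI collagen, which starts cartilage fibrils. Col11a2 had 41 and 205 reads and was 4.86-fold higher, while Col11a1 had 146 and 144 reads (log2 ratio -0.05, -0.39 to 0.29). Col27a1, a cartilage collagen with a shorter helix, had 133 and 702 reads and was 5.16-fold higher. Fibrillar members differed among themselves by more than their counting intervals.

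Type V collagen, which regulates the width of type I fibrils, had smaller ratios than the 4 fibrillar genes above that were called higher. Col5a3 had 504 and 1139 reads and was 2.22-fold higher. The lower end of its interval on counts divided by 2 was a log2 ratio of 0.93, below 2-fold. Col5a1, the fibrillar gene with the highest untreated RPKM, had 1136 and 2115 reads (log2 ratio 0.87, 0.76 to 0.97), which passed 2-fold with total counts. The unmeasured Col5a2 had 25 and 54 reads, Col24a1 had 0 and 17 (lower end of the interval 2.02 in log2, and 0.85 on counts divided by 2), and Col3a1 was listed at 0 in both libraries.

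**Figure D2:**
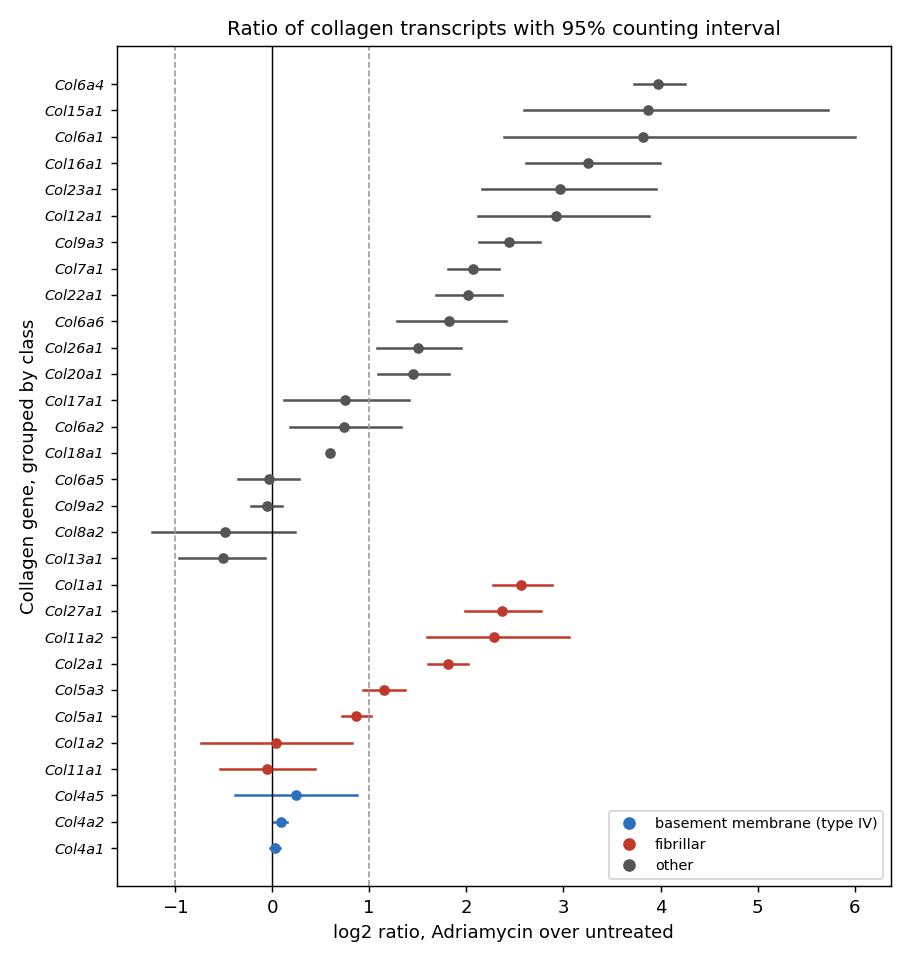
Log2 ratio of Adriamycin over untreated for the 30 measured collagen genes, with 95% counting intervals computed on counts divided by 2, coloured by class. Dashed lines mark 2-fold in either direction. The type IV genes lie between the lines, and the fibrillar genes spread from -0.05 to 2.57. Past the upper line lie 12 of the 19 measured other genes, where 17.0% of all measured genes were higher.

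Of the 9 FACIT genes, 6 were measured, with a median log2 ratio of 2.23. Of these, 5 were higher (against 17.0% of all measured genes). Col16a1, a FACIT of several connective tissues, had 42 and 413 reads and was 9.54-fold higher (log2 ratio 3.25, 2.81 to 3.76). Col12a1, found on type I fibrils of tendon and ligament, had 27 and 212 reads and was 7.58-fold higher. It was measured only through the Adriamycin library. Col22a1, a collagen of the junction between muscle and tendon, had 183 and 756 reads (4.04-fold), and Col20a1 had 173 and 483 (2.73-fold). FACIT genes were thus low in the untreated library except for Col9a2.

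Type IX collagen of cartilage is a FACIT built from the products of Col9a1, Col9a2 and Col9a3. Col9a3 had 204 untreated and 1129 Adriamycin reads and was 5.42-fold higher (log2 ratio 2.44, 2.22 to 2.66). Col9a2 had 1287 and 1263 reads (log2 ratio -0.05, -0.17 to 0.06). Col9a1 had 2 and 4 reads, below the level at which a ratio can be read. Of 3853 exonic bases of Col9a3, 234 overlap exons of Tcfl5, a gene of the opposite strand with 2045 and 1794 reads. Counting used no strand option, and the part of Tcfl5 reads in the Col9a3 count was not tested.

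Of 6 type VI genes 5 were measured, with log2 ratios from -0.04 to 3.98. Of these, 3 were higher (against 17.0% of all measured genes) and 0 lower. Col6a4 (ENSMUSG00000032572, chromosome 9, 105866653 to 105973982, minus strand) had 257 untreated and 4132 Adriamycin reads, or 6.46 and 102 CPM. It was 15.7-fold higher, a log2 ratio of 3.98 (3.80 to 4.17). This was the largest value among the measured collagen genes, though its interval lies within those of Col15a1 and Col6a1. Its neighbours on the same strand, Col6a5 and Col6a6, encode related long chains. Col6a5 had 347 and 345 reads (log2 ratio -0.04, -0.26 to 0.18), and Col6a6 had 71 and 257 reads and was 3.53-fold higher. The intervals of these neighbouring genes did not overlap.

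The promoter window of Col6a4 is shown because this gene had the highest level in the Adriamycin library among the genes called higher, with the same motifs in capitals.
Col6a4 (chr9:106096642-106096941, minus strand): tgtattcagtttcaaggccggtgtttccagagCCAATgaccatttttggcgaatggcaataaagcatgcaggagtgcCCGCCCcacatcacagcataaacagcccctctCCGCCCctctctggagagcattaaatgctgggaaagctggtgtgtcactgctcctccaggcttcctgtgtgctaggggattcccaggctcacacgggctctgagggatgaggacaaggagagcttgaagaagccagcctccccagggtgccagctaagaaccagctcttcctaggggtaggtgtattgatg
It held a CCAAT motif, 2 GC boxes and 5 CG dinucleotides, and its GC content was 55.0%. Median GC content was 59% in windows of collagen genes called higher and 62.3% in those called neither. Over all promoter windows it was 52.7%.

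The classical type VI chains are encoded by Col6a1, Col6a2 and Col6a3. Col6a1 had 7 and 107 reads and was 14.1-fold higher, with an interval of 2.81 to 5.26 in log2 because of the few untreated reads. It was measured only through the Adriamycin library. Col6a2 had 86 and 147 reads (log2 ratio 0.74, 0.35 to 1.15), and the unmeasured Col6a3 had 4 and 39 reads. All 3 had more reads in the Adriamycin library, and all stayed under 4 CPM.

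Among the remaining genes, Col7a1, which forms the anchoring fibrils under the epidermis, had 299 and 1281 reads and was 4.20-fold higher (log2 ratio 2.07, 1.89 to 2.26). The multiplexins were Col15a1 and Col18a1. Col15a1 had 9 and 141 reads and was 14.6-fold higher (log2 ratio 3.87, 2.98 to 5.10). It was measured only through the Adriamycin library. Col18a1 (ENSMUSG00000001435, chromosome 10, 76888012 to 77002382, minus strand) had 22568 and 34787 reads, or 567 and 858 CPM. At a log2 ratio of 0.60 (0.57 to 0.62), it was 1.51-fold higher and below the 2-fold rule.

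Of the 3 measured transmembrane collagens, 1 was higher (against 17.0% of all measured genes). Col23a1 had 26 and 211 reads and was 7.83-fold higher, and it was measured only through the Adriamycin library. Col17a1, a component of hemidesmosomes, had 68 and 117 reads (log2 ratio 0.75, 0.31 to 1.21). Col13a1 had 211 and 151 reads (log2 ratio -0.51, -0.82 to -0.20), and this was the only interval among the measured collagen genes that lay below 0, also on counts divided by 2. The network-forming Col8a2 had 80 and 58 reads (log2 ratio -0.49, -1.01 to 0.01). Col26a1 had 122 and 353 reads and was 2.83-fold higher.

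The 14 unmeasured genes had 0 to 25 reads in the untreated and 0 to 54 in the Adriamycin library, 66 and 209 reads in all. Of these, 10 had more reads after Adriamycin, 3 had fewer and 1 had equal numbers. In addition to those given above they were Col8a1 (6 and 0 reads), Col10a1 (6 and 4), Col14a1 (8 and 35), Col19a1 (0 and 3), Col25a1 (6 and 16) and Col28a1 (3 and 19). Such counts allow no statement on a single gene beyond their intervals, which for Col14a1 run from 0.97 to 3.42 in log2.

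Ratios between chains within 1 library do not depend on how the libraries were scaled. The per-length ratio of Col1a1 to Col1a2 was 6.87 untreated (5.13 to 9.32) and 39.5 after Adriamycin (30.6 to 51.9), a 5.76-fold difference. Col11a2 to Col11a1 went from 0.521 to 2.64, a 5.07-fold difference. Col9a3 to Col9a2 went from 0.127 to 0.718, a 5.64-fold difference, and Col6a1 to Col6a2 from 0.155 to 1.38, an 8.94-fold difference. In the same direction, Col6a4 to Col6a5 went from 0.818 to 13.2, a 16.2-fold difference.

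Other pairs kept closer to each other. Col5a3 to Col5a1 was 0.558 untreated and 0.677 after Adriamycin, with a log2 difference of 0.28 (0.09 to 0.47). Col5a1 to Col5a2 was 50.9 and 43.9, with an interval of the difference from -0.97 to 0.50 in log2. The exonic length in the deposited tables joins all exons of all transcripts, which for Col1a2 was 12426 bases. With the longest protein-coding transcript of each gene, Col1a1 to Col1a2 was 3.27 and 18.8. Col6a1 to Col6a2 was 0.0924 and 0.826 with that length, below 1 in both libraries. Its untreated value rests on 7 reads of Col6a1. The level of a ratio thus depends on the length, while its difference between libraries does not. Of the 11 chain ratios computed, the difference between libraries was smallest in value for Col4a1 to Col4a2 and largest for Col6a4 to Col6a5, whose interval overlaps that of Col6a1 to Col6a2.

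**Figure D3:**
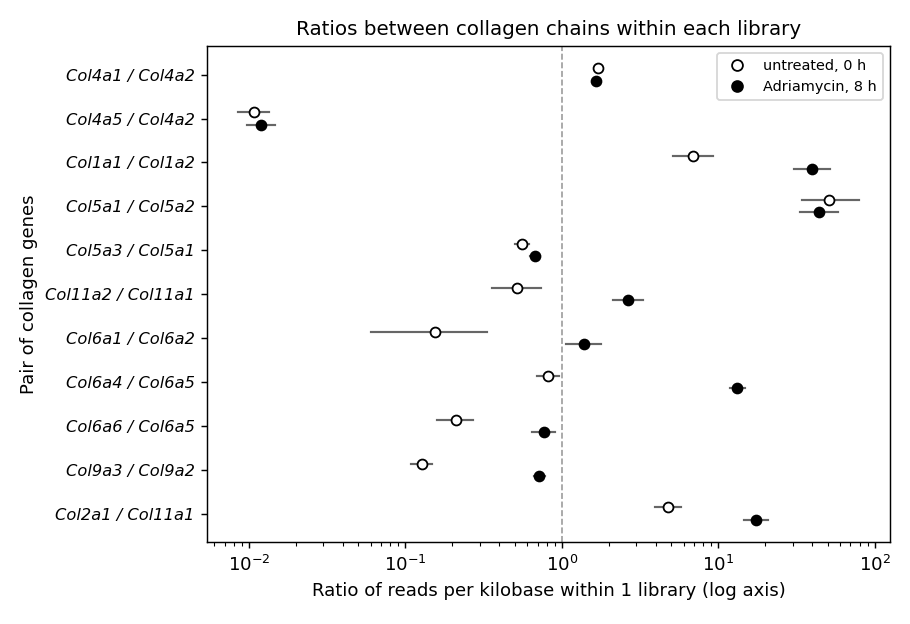
Ratio of reads per kilobase between pairs of collagen genes within the untreated library (open circles) and the Adriamycin library (filled circles), on a log axis with 95% counting intervals. The type IV pair Col4a1 and Col4a2 sits at 1.71 and 1.65, while Col6a4 to Col6a5 moves from 0.818 to 13.2.

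Low genes were higher after Adriamycin more often than abundant ones across the whole table, so collagen genes are set beside genes of like level. With a mean of 1 to 5 CPM, 6 of 13 collagen genes were higher, against 31.8% of 3500 genes. At 5 to 20 CPM, 8 of 9 were higher, against 19.9% of 3401 genes. At 20 to 100 CPM, 3 of 5 were higher, against 10.3% of 5449 genes, and at 100 CPM or more 0 of 3, against 7.02% of 2521 genes. Of the 30 measured collagen genes, Col6a1, Col12a1, Col15a1 and Col23a1 were below 1 CPM untreated, so they passed the filter only through the Adriamycin library and had to differ. Where 1 CPM was required in each library, 13 of 26 collagen genes were higher, against 12.9% of 13707 genes, and the collagen median was 1.01. In the lowest band this left 2 of 9 higher, against 17.4% of 2406 genes, a share near the background. This filter was chosen after seeing the data.

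**Figure D4:**
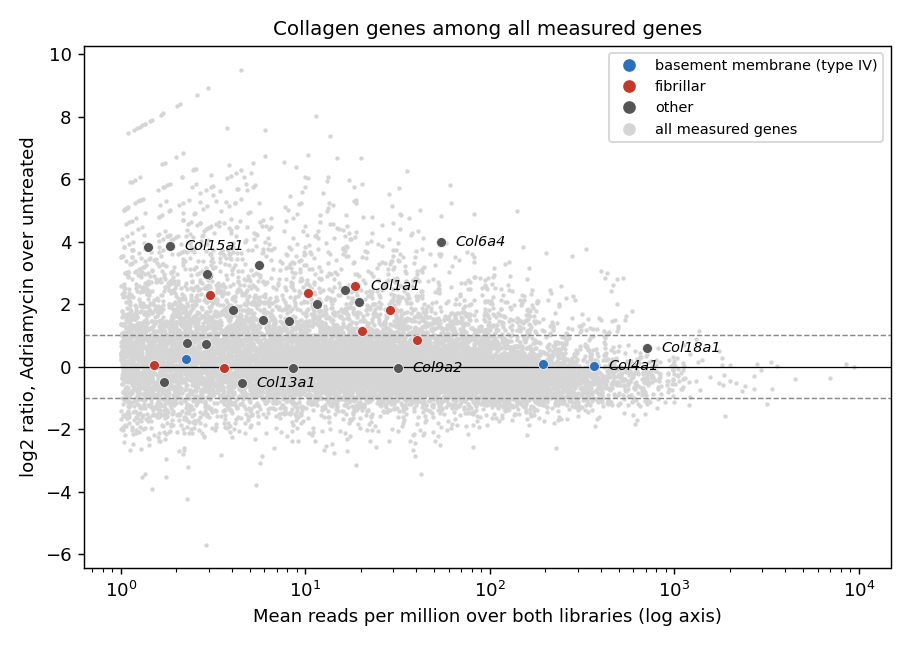
Log2 ratio of Adriamycin over untreated against the mean CPM of the libraries (log axis) for all 14871 measured genes (grey) and the 30 measured collagen genes (coloured by class). Dashed lines mark 2-fold, and Col6a4 lies at 3.98 with a mean above 50 CPM while Col4a1 and Col18a1 lie between the lines.

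Collagen genes are long, with a median span of 104.8 kb from first to last exon, against 21.2 kb over all measured genes. Across the 30 measured collagen genes, span and log2 ratio had a Spearman correlation of -0.09, and across all measured genes it was 0.03. These correlations are over genes of the same 2 libraries, which are not independent replicates. Of collagen genes spanning at least 100 kb, 8 of 16 were higher, against 20.5% of all measured genes of that span. Of those under 30 kb, 5 of 8 were higher, against 16.2%.

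Exons of 10 of the 30 measured collagen genes overlap those of another annotated gene. Apart from Tcfl5 at Col9a3 and the Col4a1 and Col4a2 pair, the overlapping genes had at most 119 reads. An opposite-strand gene at Col6a4, Gm47575, had 0 and 32 reads over 162 shared bases, beside 4132 reads for Col6a4. Without the overlapping collagen genes, 10 of 20 were higher and the median log2 ratio was 0.95.

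RefSeq promoter windows were matched for 35 of the 44 collagen genes, 38 windows in all, and for 11 of the 17 genes called higher. GC boxes were found in 20 of the 26 windows of measured collagen genes and in 3 of the 12 windows of unmeasured ones, against 35.7% of all 32851 windows of that length. CCAAT was found in 11 and 2 windows, against 37.4%, and TATAAA in 3 and 2, against 13.6%. GC boxes were found in 8 of 11 windows of genes called higher and in 12 of 15 windows of genes called neither. Median CG counts in these windows were 14 and 13, against 7 over all windows. All windows include those of genes not measured here, and no share over measured genes was computed. The differences from all windows are thus not read as a trait of collagen genes. A match is a string of letters and shows no binding.

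Collagen chains need a set of enzymes and chaperones, which were listed with results of these data known. Over 7 lists, 13 of 68 measured genes were higher, or 19.1% against a background of 17.0%, and 1 was lower, against 6.95%. The share called higher was thus near that of all measured genes, and none of the lists is read as standing apart from it. With 1 CPM in each library, 10 were higher and 1 lower. Of 16 measured genes of chain modification and folding, 3 were higher (18.8%, against 17.0%) and 0 lower (median log2 ratio 0.09). Fkbp10, a prolyl isomerase that acts on procollagen, had 784 and 5116 reads and was 6.40-fold higher. P3h3, a relative of prolyl 3-hydroxylase, was 2.56-fold higher on 245 and 641 reads. Plod2, which hydroxylates the lysines used for cross-links, was 2.08-fold higher on 6758 and 14325 reads, which was under 2-fold with upper-quartile factors. The general enzymes differed less, such as P4hb, the shared subunit of prolyl hydroxylase (24409 and 19031 reads, log2 ratio -0.39), Colgalt1 (-0.28) and the collagen chaperone Serpinh1 (0.34).

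Of 7 measured genes of export from the endoplasmic reticulum, 0 were higher (against 17.0% of all measured genes) and 1 was lower (against 6.95%). With 7 genes, neither count is read as standing apart from these shares. The median log2 ratio was -0.19. Mia2, a cargo adaptor for large proteins, was 2.04-fold lower on 2651 and 1326 reads, which was under 2-fold with total counts. Mia3 was listed at 0 in both libraries. The coat genes Sec23b and Sec23a had log2 ratios of 0.07 and -0.11, and Klhl12 -0.19.

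Of 10 measured genes of procollagen processing and cross-linking, 3 were higher (against 17.0% of all genes) and 0 lower. Their median log2 ratio was 0.62, and 0.06 with a 5 CPM minimum. Adamts2, the protease that removes the amino-terminal propeptide of fibrillar procollagens, had 31 and 937 reads and was 29.2-fold higher (log2 ratio 4.87, 4.37 to 5.46). At 0.779 CPM untreated, Adamts2 was measured only through the Adriamycin library and had to differ. With 1 CPM in each library, 2 genes of this list were higher. Bmp1, which removes the carboxy-terminal propeptide, had 306 and 953 reads (3.05-fold), and the lysyl oxidase gene Loxl3 had 87 and 306 (3.44-fold). Pcolce, an enhancer of Bmp1, had 4917 and 3948 reads (log2 ratio -0.34), and Adamts14 and Pxdn had log2 ratios of 0.80 and -0.33.

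Of 8 measured collagen receptors, 3 were higher (against 17.0% of all genes) and 0 lower. Their median log2 ratio was 0.46, but 1.35 with no filter beyond 1 read and 0.11 with 1 CPM in each library. Ddr1, a receptor tyrosine kinase that binds collagen, had 1572 and 7931 reads and was 4.95-fold higher (log2 ratio 2.31, 2.23 to 2.39). Itga2, a collagen-binding integrin subunit, had 0 and 134 reads, with a lower end of the counting interval at 5.14 in log2, and was measured only through the Adriamycin library. Itga10 was 2.54-fold higher. Itgb1, the common partner of these integrin subunits, had 8488 and 4778 reads (log2 ratio -0.86), and Adgrg1 had a log2 ratio of 0.82. Itgb1 stayed within 2-fold.

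Of 5 measured collagen-degrading proteases, Mmp2, a gelatinase that cuts type IV collagen, was higher (830 and 2329 reads, 2.75-fold) and 0 were lower. This is 1 gene of 5, near the 17.0% of all measured genes. Ctsl, Ctsb and Mmp14 had log2 ratios of -0.28, 0.35 and -0.17. Of the 10 basement membrane partners of type IV collagen, 0 were higher or lower (median 0.11). Perlecan (Hspg2) had 34324 and 56725 reads and a log2 ratio of 0.70, nidogen 2 (Nid2) 0.21 and the laminin chain Lamc1 -0.16. Nidogen 1 (Nid1) and Lama1 had -0.52 and -0.44. Like Col4a1 and Col4a2, these partners were abundant and within 2-fold. Of all genes with a mean of 100 CPM or more, 7.02% were higher, so 0 of 10 is near that share.

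Of 12 measured transcription factors known to act on collagen genes, 3 were higher (25.0%, against 17.0%) and 0 lower (against 6.95%), with a median of -0.18. Scx, a tendon factor known to act on Col1a1 and Col1a2, had 29 and 250 reads (8.33-fold). At 0.729 CPM untreated, Scx was measured only through the Adriamycin library and had to differ. Cebpb had 54 and 403 reads (7.26-fold) and Smad3, an effector of TGF-beta, had 1213 and 2899 (2.34-fold). With 1 CPM in each library, 2 factors of this list were higher. Sox9, the cartilage factor that drives Col2a1, had 5 and 4 reads. The abundant factors Sp1, Smad4 and Smad2 had log2 ratios of -0.20, -0.56 and -0.15.

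**Figure D5:**
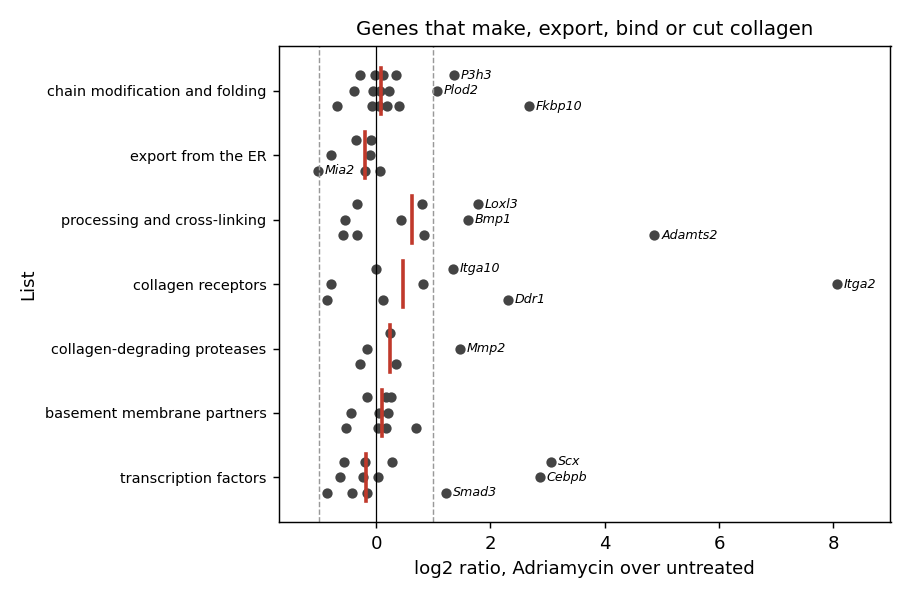
Log2 ratio of Adriamycin over untreated for the measured genes of 7 lists of collagen partners, 1 point per gene, with the list median as a red bar and dashed lines at 2-fold. Itga2, with 0 untreated reads, is plotted at a value that rests on the added 0.5 read. All 10 basement membrane partners lie between the lines, and Adamts2 and Fkbp10 lie far to the right.

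Markers of other cell types that make collagen were checked beside these results. Among all measured genes 17.0% were higher and 6.95% lower, so counts of 0 in lists this short are near those shares. Of 12 fibroblast markers other than collagens 5 were measured, 0 of them higher or lower. The summed level of the 12 was 59.5 CPM untreated and 69.2 CPM after Adriamycin. The measured ones were Fbn1 (330 and 559 reads), Pdgfrb (636 and 971), Pdgfra (787 and 720), Thy1 (484 and 448) and Twist1 (100 and 59). Dcn, Lum, Postn, Prrx1 and Fap were at 0 reads in both libraries, Twist2 had 0 and 2, and Acta2 had 31 and 47. The part of fibroblast-marked cells in the collagen levels was not tested. Of 8 markers of early endoderm, a tissue rich in type IV collagen, 7 were measured. Of these, 0 were higher (against 17.0%) or lower (against 6.95%). The summed levels of the 8 were 111 and 86.5 CPM. Gata6 had 755 and 787 reads, Sox17 217 and 269, and Dab2 1923 and 1195. The part of endoderm-marked cells in the Col4a1 and Col4a2 level was not tested.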

How the data were processed

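For each library the authors deposited a table of unnormalized counts. The counter was featureCounts 2.0.3, per the file headers, on GRCm39 with Ensembl release 105. Both mates had to align, each mate was counted separately, and strand was ignored. The submitters' processing notes list HISAT2 2.0.4 and Trim Galore 0.3.4, an earlier featureCounts (1.6.0), and the builds mm9 and mm10. These differ from the headers, and positions are those of the tables. Symbols were looked up by Ensembl identifier in a gene name table (52081 of 55414 matched). TMM factors were 0.951 and 1.05 (edgeR 4.0.16, R 4.3.3). Ratios were computed with a pseudocount of 0.5 read (Python 3.11.15, numpy 2.4.6, scipy 1.17.1), with conditional binomial and Poisson intervals. Chain-ratio differences have conditional odds ratio intervals, except Col4a1 to Col4a2, whose large counts were given a log-normal interval. A count of 0 allows 3 reads, 0.0754 CPM untreated and 0.0740 CPM after Adriamycin. Every measured collagen gene is named, with partner genes past 2-fold and the most abundant ones, and a few more chosen after their values were seen. Chain pairs were chosen with values known. The members and lists were chosen with earlier results of these data known.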

Additional observations from a re-analysis of the deposited data

How the results depend on the processing

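No paired analysis was possible because each condition has 1 library. With no filter beyond 1 read, 26 of 43 collagen genes were higher and 1 lower. The partner lists then had 20 higher and 2 lower genes. Of the higher collagen genes 2 were type IV, Col4a3 (0 and 5 reads) and Col4a6 (0 and 8 reads). With 0 untreated reads, their ratios rest on the pseudocount. Under a 5 CPM minimum, 11 of 17 collagen genes were higher, 7 of them in the other class. No share of all genes was computed under either filter, so these counts have no background. At a mean of 1 to 5 CPM, 31.8% of all genes were higher. At 4-fold, 3 fibrillar genes were higher. Without genes with overlapping exons, 10 collagen genes were higher, 5 in the other class, and the medians were 0.95 over all, 1.81 for fibrillar (also at 5 CPM) and 0.75 for other genes. The type IV median was 0.23 with total counts, -0.034 with upper-quartile factors, 0.17 with no filter, and 0.24 without overlapping genes or without Col18a1, Col4a1 and Col4a2, where Col4a5 is the one measured type IV gene left. The last choice was made after seeing the data, as were the transcript length and the minimum of 1 CPM in each library, which gave a median of 1.01 over all collagen genes. With total counts 0 partner genes were lower. Total counts moved the median of all measured genes from -0.03 to 0.12, upper-quartile factors to -0.15. Over the scalings, pseudocount and halved counts, no call of a measured collagen gene was lost, and 1 was gained, Col5a1 with total counts. Log2 ratios near 0 changed sign for 3 genes with total counts (Col11a1, Col9a2 and Col6a5) and 3 with upper-quartile factors (Col1a2, Col4a1 and Col4a2).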
